A study of Mus musculus with 24 samples.

Results

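The integrin chains are described here by 10 genes of 35817 with a summed count: Itga4, Itgae and Itgb7, whose products form the gut homing and tissue retention integrins, Itgal and Itgb2 (the chains of LFA-1), Itgam and Itgax (the α chains of the myeloid integrins CD11b and CD11c), and Itga1, Itgb1 and Itgb3, whose products bind matrix proteins. They were chosen by name, with earlier results of these data known. All 10 passed the filter on low counts in each fit. RNA was sequenced from sorted splenic CD8+ or CD4+ T cells in 8 groups of 3 libraries, Cat-Tg or WT, taken pre-tx or on day 7 post-tx. Pre-tx cells came straight from the spleen of C57BL/6 WT mice or of Cat-Tg mice on the C57BL/6 background, which were heterozygous for an N-terminally truncated human β-catenin in a vector known to carry the proximal Lck promoter, active in T cells. For post-tx groups, CD4+ and CD8+ donor T cells of one genotype were mixed and given with T cell-depleted WT bone marrow to lethally irradiated BALB/c recipients, and donor cells were sorted from the recipient spleen by H-2Kb, an antigen that the donor marrow carries as well. Pre-tx and post-tx therefore differ in host, irradiation and time together, and these cannot be told apart. By the methods each library is the cells of 1 mouse.

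Integrins are surface receptors made of an α and a β chain, and they hold leukocytes to vessel walls, to other cells and to matrix. The β7 chain pairs with α4 to bind MAdCAM-1 on gut vessels and with αE to bind E-cadherin on epithelium; the β2 chain pairs with αL to bind ICAM-1 at the vessel wall and the immune synapse. CD11b and CD11c are best known on macrophages, granulocytes and dendritic cells, but activated T cells and NK cells can carry them. In graft-versus-host disease, donor T cells use such receptors to enter gut, liver and skin.

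Library totals ranged from 11135713 to 50519825 estimated counts, so that 3 counts, the smallest level taken as seen, lay between 0.0596 and 0.27 CPM before TMM normalization. This floor covers counting error only, and on the normalized scale it shifts with the TMM factor of each library. Levels are CPM, library-size-scaled counts after TMM normalization. The WT pre-tx libraries went against their labels: Cd8a made up 50.0% to 63.9% of Cd4 and Cd8a together in those labelled WT CD8+ pre-tx and 52.4% to 65.4% in those labelled WT CD4+ pre-tx, while in the other 6 groups the coreceptor followed the label (99.0% to 99.9% in CD8+ and 0.1% to 3.4% in CD4+). B cell markers (14 genes) summed to 11800 to 16100 CPM in the WT pre-tx libraries and to 506 to 3360 CPM in all others, and T cell markers to 1980 to 3360 CPM against 5370 to 16000 CPM. Sums of 4 Y-linked genes (Ddx3y, Eif2s3y, Kdm5d and Uty) were 134 to 282 CPM in the Cat-Tg pre-tx libraries and 2.53 to 57.2 CPM in the others; all 4 fell post-tx in Cat-Tg CD8+ cells (median log2 fold change −6.83) and in Cat-Tg CD4+ cells (−6.90). Ddx3y went from a mean of 47.5 to 0.0324 CPM in Cat-Tg CD8+ cells and stood at 0.332 and 0.165 CPM in WT CD8+ pre-tx and post-tx libraries. The sex of the mice, as read from these genes, thus cannot be told apart from time in the Cat-Tg comparisons over time, or from genotype pre-tx. Leaving these WT libraries out leaves no WT pre-tx group, so each result against WT pre-tx rests on them. The Cat-Tg changes over time, which carry the Y-linked difference, and the post-tx comparisons between genotypes do not compare them. The WT pre-tx libraries still entered the filter, normalization and dispersion of the fits that gave those comparisons. When only the 6 libraries compared were fitted, the CD8+ post-tx genotype comparison called 0 of the 10 chains, against 1 in the main fit. All Cat-Tg library names carry one prefix and all WT names another, so library series and genotype cannot be told apart.

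Promoter sequence was at hand for 6 of the 10 genes (Itga1, Itga4, Itgam, Itgax, Itgb1 and Itgb7). The 250 bases before the start are shown for Itgam and Itgax, the myeloid chain genes on one chromosome that rose in Cat-Tg cells, and for Itgb7, the most abundant β chain, from RefSeq (GRCm38.p6). Itgam lies on the plus strand at chr7:128062390-128062639, Itgax on the plus strand at chr7:128129300-128129549 and Itgb7 on the minus strand at chr15:102231936-102232185. Capitals mark any match on either strand to CTTTGA (a TCF/LEF core, the partners of β-catenin), GAGGAA (a PU.1 core) or TGTGGT (a RUNX core); no matches overlapped. Each line reads 5′ to 3′ along the gene.
Itgam: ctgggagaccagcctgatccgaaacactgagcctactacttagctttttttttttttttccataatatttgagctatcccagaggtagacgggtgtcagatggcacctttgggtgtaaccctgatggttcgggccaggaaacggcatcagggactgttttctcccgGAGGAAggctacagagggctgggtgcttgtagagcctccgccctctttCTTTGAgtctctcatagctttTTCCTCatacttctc
Itgax: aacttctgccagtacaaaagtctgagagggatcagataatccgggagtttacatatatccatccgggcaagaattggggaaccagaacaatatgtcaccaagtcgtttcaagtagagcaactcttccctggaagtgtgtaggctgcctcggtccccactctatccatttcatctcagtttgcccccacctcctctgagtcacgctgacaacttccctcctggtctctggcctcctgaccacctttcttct
Itgb7: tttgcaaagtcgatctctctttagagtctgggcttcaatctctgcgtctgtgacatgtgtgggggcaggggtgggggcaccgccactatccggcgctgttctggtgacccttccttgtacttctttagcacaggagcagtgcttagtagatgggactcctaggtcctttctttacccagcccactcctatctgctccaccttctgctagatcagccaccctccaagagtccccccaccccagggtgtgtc
The Itgam window held 1 TCF/LEF match, beginning 36 bases before the start, and 2 PU.1 matches, beginning 84 and 15 bases before it. Neither the Itgax nor the Itgb7 window held any of these letters. Of 32851 promoter windows of this length, 13.8% held the TCF/LEF letters, 23.3% the PU.1 letters and 14.0% the RUNX letters, so these matches are a description of the sequence alone.

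Read per transcript length, as TPM, Itgal and Itgb7 made up most of the 6 α and of the 4 β chains described here, by group mean. Other integrin genes were not part of these sums. Itgb7 took between 57.4% ± 2.6 (WT CD4+ post-tx) and 77.3% ± 3.1 (Cat-Tg CD8+ pre-tx) of the summed TPM of the 4 β chains (mean ± SD, n = 3 libraries). Itgal took between 57.4% ± 4.5 (Cat-Tg CD8+ pre-tx) and 81.4% ± 2.2 (WT CD4+ post-tx) of that of the 6 α chains. In WT CD8+ post-tx libraries the Itgal share ranged from 48.4% to 81.0%. The groups differed in what came beside Itgal. In Cat-Tg CD8+ pre-tx libraries Itgae held 26.1% ± 1.1 of the α chain TPM and Itgax 0.5% ± 0.2. In Cat-Tg CD8+ post-tx libraries Itgae held 0.2% ± 0.0 and Itgax 16.5% ± 1.7.

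**Figure D1:**
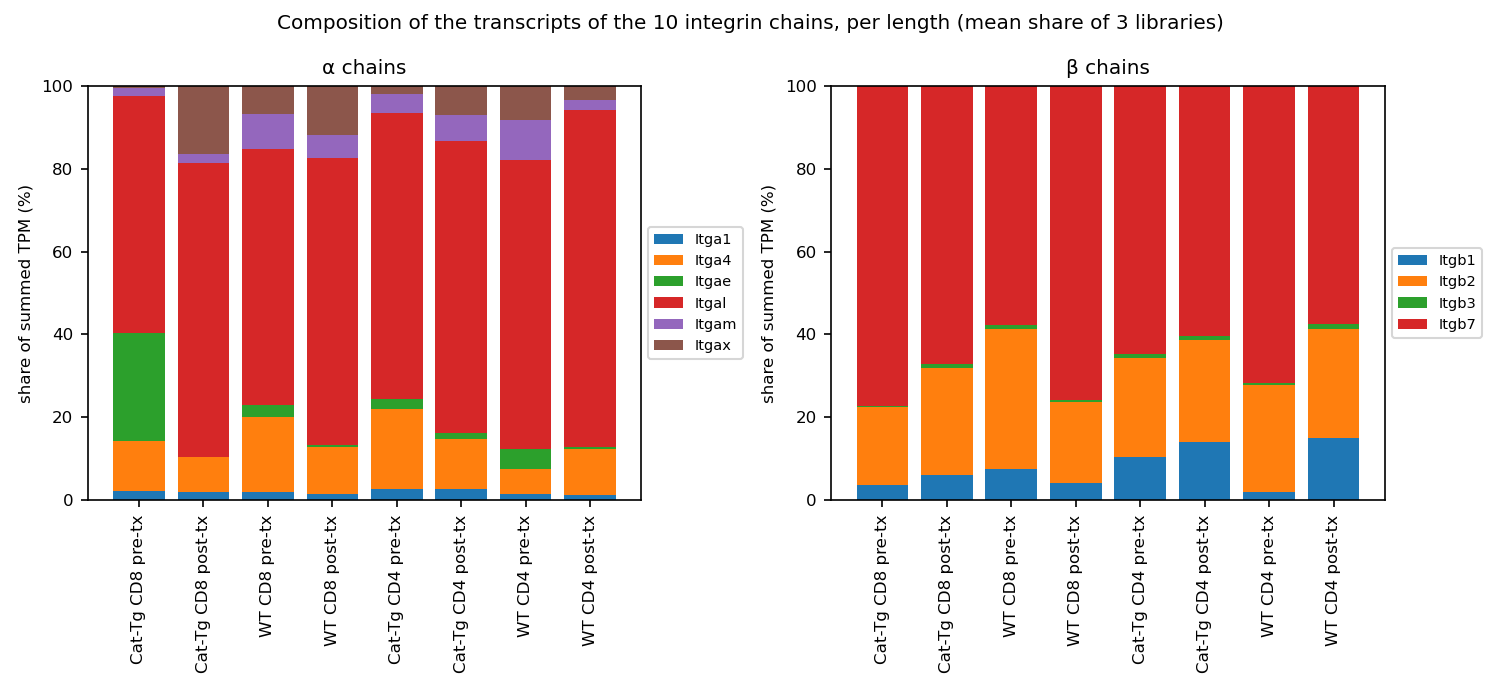
Stacked bars give the mean share of each α chain (left) and each β chain (right) in the summed TPM of its kind among the 10 chains, in percent. The 8 groups hold 3 libraries each. Itgal and Itgb7 fill most of every bar, Itgae is wide only in Cat-Tg CD8+ pre-tx (26.1%) and Itgax is widest in Cat-Tg CD8+ post-tx (16.5%).

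Many of these genes differed between pre-tx and post-tx libraries. In Cat-Tg CD8+ cells 8 of 10 rose and 1, Itgae, fell, where 8.72% of the 15960 genes tested rose and 5.23% fell (edgeR quasi-likelihood test, adjusted p of at most 0.05). In Cat-Tg CD4+ cells 8 of 10 rose and none fell, where 16.2% of 17227 genes rose and 28.9% fell. In WT CD8+ cells 4 rose and 1 fell (13.2% and 10.4% of all genes), and in WT CD4+ cells 6 rose and 1 fell (14.7% and 9.61%); both use the mixed WT pre-tx libraries. The median log2 fold change of the 10 was 2.61, 1.55, 0.84 and 1.22 in that order, beside −0.26, −0.38, −0.23 and −0.13 over all genes tested.

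Fewer differed between genotypes. In CD8+ pre-tx cells 1 of 10, Itgae, was higher in Cat-Tg and 2, Itgax and Itgb3, were lower, where 4.50% of all genes were higher and 4.47% lower. In CD4+ pre-tx cells 3 were higher (Itga4, Itgb1 and Itgb3) and 2 lower (Itgam and Itgax), beside 13.3% and 7.18% of all genes. Post-tx, 1 of 10 was higher in Cat-Tg CD8+ cells, Itgax, beside 1.10% of all genes, and none was lower, beside 0.570%. Also post-tx, 1 of 10 was higher in Cat-Tg CD4+ cells, Itgam, beside 3.70%, and none was lower, beside 6.47%. Without an adjustment, 6 and 3 of the 10 had p under 0.05 in these post-tx comparisons of CD8+ and CD4+ cells (edgeR). Of all genes tested, 3044 of 15960 and 4223 of 17227 did, so the CD4+ count lies near the share over all genes. The median log2 fold change of the 10, Cat-Tg over WT, was −0.36 and 1.26 in CD8+ cells pre-tx and post-tx, beside −0.07 and −0.18 over all genes, and −0.08 and 0.34 in CD4+ cells, beside 0.03 and −0.19. Each comparison over time shares its groups with the comparisons between genotypes.

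**Figure D2:**
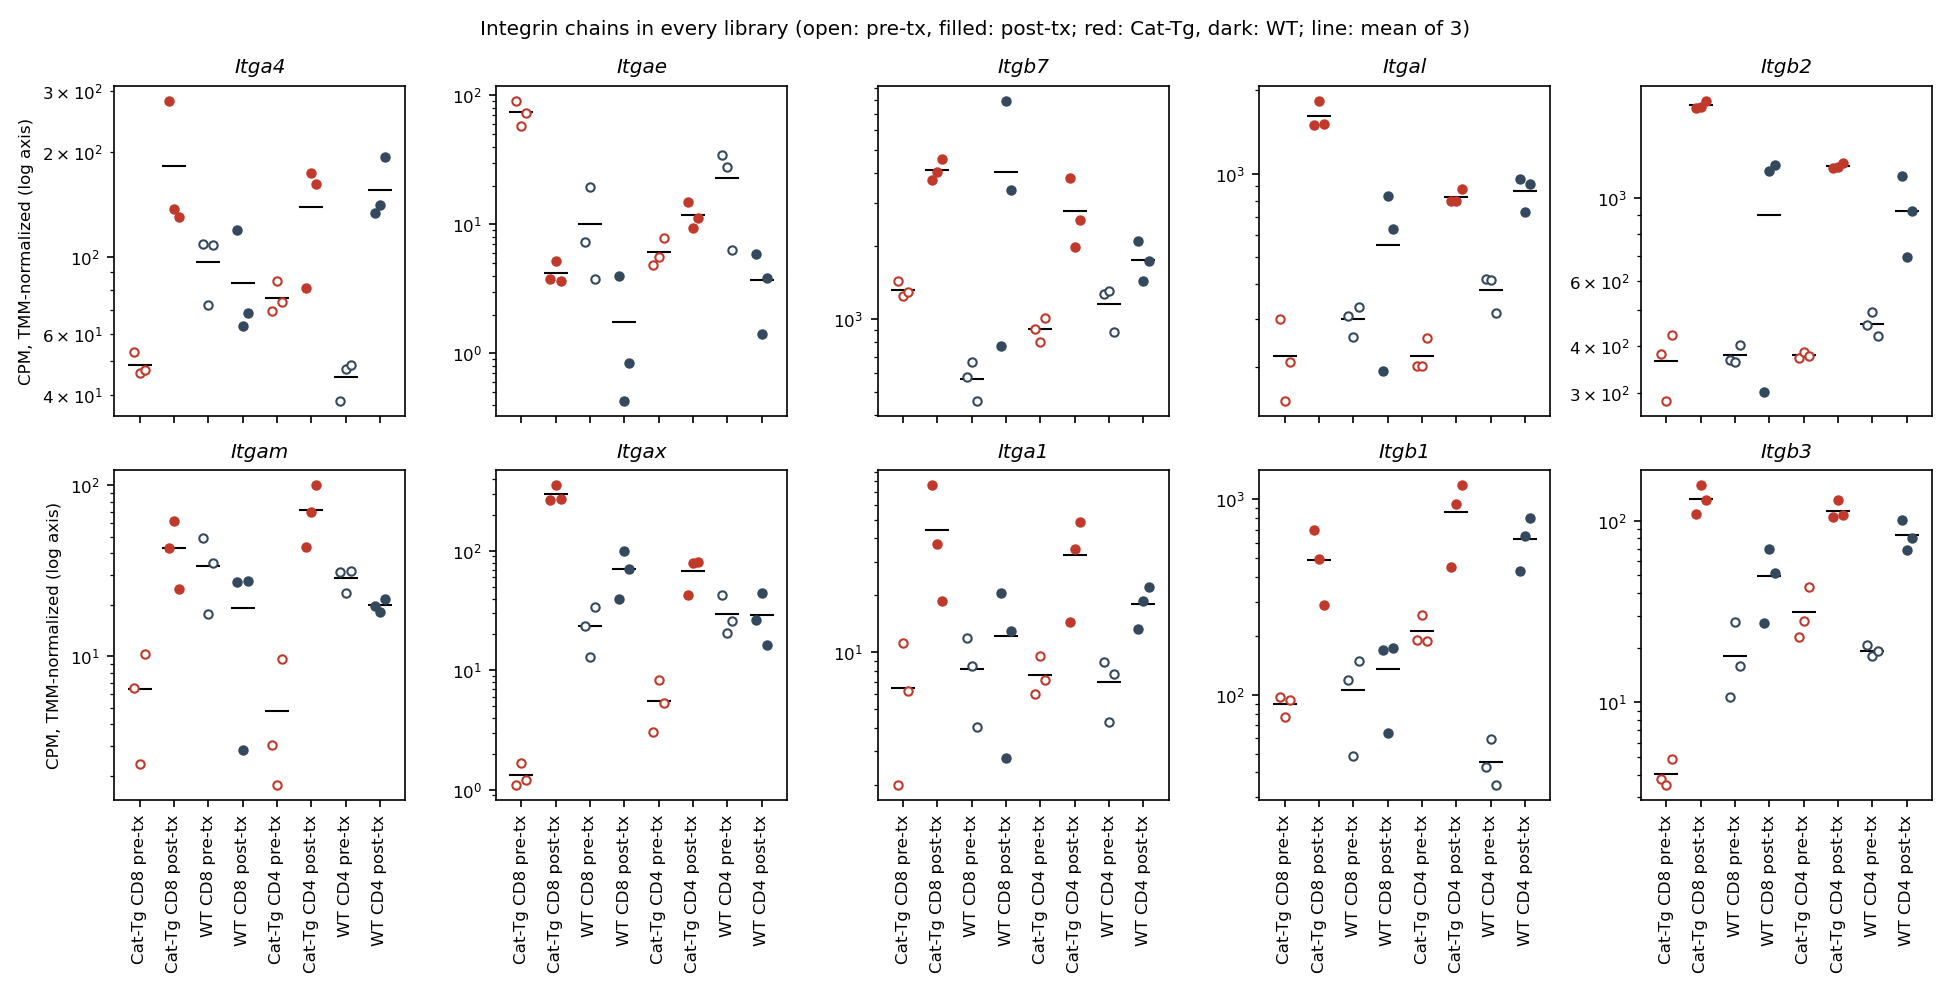
Each panel plots 1 integrin chain in the 24 libraries, as CPM on a log axis, by group (open circles pre-tx, filled post-tx; red Cat-Tg, dark WT; line, mean of 3). Itgax spans from 1.10 CPM in a Cat-Tg CD8+ pre-tx library to 356 CPM in a Cat-Tg CD8+ post-tx library, and the first WT CD8+ post-tx library lies far below its group for Itgal, Itgb2 and Itgb7.

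Among the gut homing and retention chains, Itgae (αE, CD103) was high in one group. It stood at 90.3, 57.6 and 73.2 CPM in the Cat-Tg CD8+ pre-tx libraries and at 3.78, 5.20 and 3.64 CPM in the Cat-Tg CD8+ post-tx libraries. The groups did not overlap, and Itgae fell by 4.12 on the log2 scale (SE 0.79, adjusted p = 0.00375, edgeR). This fall kept its call in all 8 alternative fits and without any 1 library. The 3 libraries labelled WT CD8+ pre-tx held 7.25, 19.4 and 3.76 CPM, all below the Cat-Tg libraries, and Itgae was higher in Cat-Tg by 2.92 on the log2 scale (SE 0.75, adjusted p = 0.0241, edgeR). That call was lost in 5 of 6 fits that left out 1 library, with an adjusted p of up to 0.0966, and was kept only without the second WT library. In that genotype comparison 8 of 12 T cell markers were also higher in Cat-Tg and none was lower (median log2 fold change 1.89). They summed to 8100 to 10500 CPM in Cat-Tg and to 1980 to 2110 CPM in WT libraries. Cd8a stood at 526 to 915 CPM in Cat-Tg and at 92.6 to 149 CPM in WT. Their part in the Itgae difference was not tested. In a bulk sample, fewer cells of a type and less RNA per cell cannot be told apart.

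In CD4+ cells Itgae was low. It stood at 4.84, 5.54 and 7.90 CPM in the Cat-Tg CD4+ pre-tx libraries and at 14.9, 9.40 and 11.2 CPM post-tx, a log2 difference of 0.63 (SE 0.59, adjusted p = 0.397, edgeR) that did not pass although the groups did not overlap. Those labelled WT CD4+ pre-tx held 34.3, 27.9 and 6.35 CPM and the WT CD4+ post-tx libraries 5.87, 1.40 and 3.86 CPM. All WT post-tx libraries thus lay below all WT pre-tx libraries, and the fall of 2.50 on the log2 scale passed (SE 0.61, adjusted p = 0.00783, edgeR). WT CD8+ post-tx libraries had the lowest mean, at 3.99, 0.429 and 0.837 CPM, and their range overlapped that of the pre-tx libraries. The fall of 2.40 on the log2 scale from pre-tx (SE 0.75, adjusted p = 0.0295, edgeR) was lost without the second pre-tx library (1.59 on the log2 scale, adjusted p = 0.144) or the third post-tx library (adjusted p = 0.0823), and with only the 6 libraries compared (adjusted p = 0.118). Between CD8+ and CD4+ Cat-Tg pre-tx cells Itgae differed by 3.59 on the log2 scale, higher in CD8+ (SE 0.75, adjusted p = 0.00853, edgeR, 24 libraries); this was lost without the first or the second CD4+ library (adjusted p up to 0.0666) and with protein-coding transcripts only (adjusted p = 0.104).

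Itgae reads fell on 2 transcripts, and the mean of their estimated split differed between groups. The protein-coding transcript Itgae-201 took 89.7% of the Itgae counts in Cat-Tg CD8+ pre-tx libraries and 96.0% in those labelled WT CD8+ pre-tx. It took 18.6% in WT CD8+ post-tx libraries (0.0% to 55.9%) and 43.5% in WT CD4+ post-tx libraries (16.2% to 74.2%), where the rest lay on Itgae-202, annotated as a retained intron. These shares rest on few Itgae counts: 59, 7 and 21 in WT CD8+ post-tx libraries and 341, 51 and 171 in WT CD4+ post-tx libraries. By Itgae-201 alone the order at the top held: 66.2 ± 15.4 CPM in Cat-Tg CD8+ pre-tx and 15.6 ± 12.4 CPM in WT CD4+ pre-tx, next in order. With protein-coding transcripts only, an alternative added after seeing the data, the difference between genotypes in CD8+ pre-tx cells was 2.67 on the log2 scale and no longer passed (adjusted p = 0.182, edgeR).

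Itgb7, the β partner of both αE and α4, did not follow Itgae. It stood at 1434, 1239 and 1290 CPM in Cat-Tg CD8+ pre-tx libraries and at 3763, 4046 and 4566 CPM post-tx. All 3 post-tx libraries were higher, yet the log2 difference of 1.66 (SE 0.55, adjusted p = 0.0543, edgeR) missed the threshold. WT CD8+ post-tx libraries held 777, 7939 and 3396 CPM, against 576, 667 and 459 CPM in those labelled WT CD8+ pre-tx. All 3 lay above pre-tx, and the rise of 2.96 (SE 0.57, adjusted p = 0.00163, edgeR) kept its call without any 1 library, between 1.80 and 3.16 on the log2 scale. In that comparison 10 of 12 T cell markers rose and none fell (median log2 fold change 2.54), and all 14 B cell markers fell (median −7.23). Their part in this Itgb7 rise, or in the other WT CD8+ changes over time, was not tested. In Cat-Tg CD4+ cells Itgb7 rose from 910, 801 and 1007 CPM to 3833, 1976 and 2561 CPM (log2 fold change 1.30, SE 0.27, adjusted p = 0.00159, edgeR). In WT CD4+ cells it went from 1267, 1309 and 881 CPM to 2104, 1437 and 1733 CPM without overlap, a log2 difference of 0.74 (SE 0.27, adjusted p = 0.0526, edgeR). Genotype comparisons of Itgb7 lay between −0.11 and 1.25 on the log2 scale and none passed.

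Itga4 (α4), which pairs with β7 in gut homing and with β1 in VLA-4, rose after transplantation in 2 of the 4 settings. In Cat-Tg CD8+ cells it went from 53.1, 46.4 and 47.2 CPM to 280, 137 and 130 CPM, without overlap (log2 fold change 1.91, SE 0.42, adjusted p = 0.00822, edgeR). Without the first post-tx library, the highest, the log2 fold change was 1.46 and the call was lost (adjusted p = 0.0568). In WT CD4+ cells it went from 38.4, 47.6 and 48.9 CPM to 134, 140 and 193 CPM (log2 fold change 1.92, SE 0.28, adjusted p = 0.000159, edgeR), a call kept without any 1 library. WT CD8+ levels overlapped, at 109, 72.8 and 108 CPM pre-tx and 119, 63.2 and 69.0 CPM post-tx. Cat-Tg CD4+ levels overlapped too, at 69.9, 84.8 and 73.8 CPM and at 81.0, 173 and 161 CPM.
Between genotypes, Itga4 was higher in Cat-Tg CD4+ pre-tx cells by 0.99 on the log2 scale (SE 0.27, adjusted p = 0.017, edgeR), without overlap. That call was lost without the first or the third WT library or the second Cat-Tg library (log2 fold change 0.64 to 1.06 over the 6 fits), and in 4 of 8 other fits, among them DESeq2's size factors (0.78, adjusted p = 0.0508). Itga4 shares exon bases with Cerkl on the opposite strand, which stood at 0.674 to 17.0 CPM, and the kits named do not mark strand, so reads of the shared bases cannot be assigned.

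The LFA-1 chains Itgal (αL) and Itgb2 (β2) rose together. Itgal went from 298, 152 and 209 CPM in Cat-Tg CD8+ pre-tx to 1502, 1830 and 1508 CPM post-tx, by 2.89 on the log2 scale (SE 0.47, adjusted p = 0.0012, edgeR). Itgb2 went from 382, 286 and 429 CPM to 1748, 1752 and 1820 CPM, by 2.29 on the log2 scale (SE 0.44, adjusted p = 0.00373, edgeR). For both, every post-tx library lay above every pre-tx library, and the calls held without any 1 library. In Cat-Tg CD4+ cells Itgal went from 203, 202 and 256 CPM to 799, 795 and 883 CPM (log2 fold change 1.58, SE 0.21, adjusted p = 5.86e-05, edgeR). Itgb2 there went from 373, 387 and 377 CPM to 1202, 1214 and 1244 CPM (log2 fold change 1.36, SE 0.21, adjusted p = 0.000174, edgeR). WT CD4+ cells rose as well, Itgal by 1.31 (SE 0.21, adjusted p = 0.000368) and Itgb2 by 1.13 (SE 0.21, adjusted p = 0.00105, edgeR) on the log2 scale. In that comparison all 12 T cell markers rose (median log2 fold change 1.45) and all 14 B cell markers fell (median −7.26). Their part in these WT rises was not tested.

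WT CD8+ cells were less uniform. The post-tx libraries held 195, 831 and 630 CPM of Itgal and 301, 1178 and 1224 CPM of Itgb2, against 306, 258 and 331 CPM and 368, 364 and 403 CPM in those labelled pre-tx. The first post-tx library lay below every pre-tx library for both chains and the other two above. Itgb2 passed (log2 fold change 1.38, SE 0.43, adjusted p = 0.0288, edgeR), but the call was lost in 5 of 6 fits that left out 1 library and was kept only without that first library; it was lost too in 4 of 8 other fits (adjusted p up to 0.147). Itgal did not pass (1.01, SE 0.44, adjusted p = 0.113) but did when that library was left out (log2 difference 1.16). Post-tx, the Cat-Tg CD8+ libraries lay above all WT CD8+ libraries for both chains, with log2 differences of 1.46 for Itgal (SE 0.45, adjusted p = 0.103, edgeR) and 0.89 for Itgb2 (SE 0.42, adjusted p = 0.268, edgeR). Neither passed; the Itgal difference did pass without the first WT library (1.20) or the second WT library (1.97). Over the 24 libraries Itgal and Itgb2 had a Pearson r of 0.96 on log2 CPM, as a description of libraries that share groups.

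The myeloid chains gave the widest range. Itgax (αX, CD11c) stood at 1.10, 1.67 and 1.21 CPM in Cat-Tg CD8+ pre-tx libraries, where it rested on 22, 39 and 34 counts, and at 269, 356 and 272 CPM post-tx. The rise was 7.82 on the log2 scale (SE 0.59, adjusted p = 2.01e-06, edgeR), between 7.65 and 8.0 without any 1 library. Post-tx levels in the other groups were lower: 39.6, 101 and 70.9 CPM in WT CD8+, 43.1, 79.0 and 80.6 CPM in Cat-Tg CD4+ and 26.5, 44.2 and 16.2 CPM in WT CD4+ libraries. No library of these reached the Cat-Tg CD8+ range, and Itgax was higher in Cat-Tg than in WT CD8+ post-tx cells by 2.0 on the log2 scale (SE 0.45, adjusted p = 0.0413, edgeR). That call was lost without the first or the second Cat-Tg library or the third WT library (adjusted p up to 0.195), with DESeq2's size factors (adjusted p = 0.0574) and with only the 6 libraries compared (adjusted p = 0.119); the log2 difference stayed between 1.86 and 2.45. Myeloid and erythroid markers were also higher there in Cat-Tg: the 16 myeloid markers summed to 402 to 821 CPM against 181 to 310 CPM in WT (1 passed, higher, and none lower; median log2 fold change 1.71), and the erythroid markers, 7 tested, to 2940 to 4440 CPM against 252 to 2060 CPM (1 higher, none lower; median 2.50). None of the 8 dendritic cell markers passed (median −1.32). The part of these markers in the Itgax difference was not tested. Against Cat-Tg CD4+ post-tx cells Itgax was higher in CD8+ by 2.14 (SE 0.46, adjusted p = 0.00428, edgeR, 24 libraries), a call kept without any 1 library.

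Itgax also rose in Cat-Tg CD4+ cells, by 3.28 on the log2 scale (SE 0.49, adjusted p = 0.000138, edgeR) and without any 1 library by 2.95 to 3.67. In that comparison 11 of 16 myeloid markers rose and 1 fell, with sums of 1340 to 1960 CPM pre-tx and 3820 to 5300 CPM post-tx. Of 8 dendritic cell markers 1 rose and 2 fell. Their part in this Itgax rise was not tested. In WT CD8+ cells the rise was 1.70 (SE 0.45, adjusted p = 0.0118, edgeR), lost without the second or the third post-tx library (adjusted p up to 0.0573), with length-scaled TPM counts (adjusted p = 0.0846) and with only the 6 libraries compared (adjusted p = 0.0872). In WT CD4+ cells levels overlapped and the log2 difference was 0.12 (SE 0.45, adjusted p = 0.859).

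Marker sums of other cell types that can carry CD11c were read beside the rise of Itgax in Cat-Tg CD8+ cells. The 8 dendritic cell markers (Zbtb46, Xcr1, Clec9a, Flt3, Batf3, Siglech, Cd209a and Clec10a) summed to 5.18 to 19.8 CPM pre-tx and 9.32 to 14.6 CPM post-tx, with Clec9a at 0 in all 3 post-tx libraries; none of the 8 rose and 1 fell. The 16 myeloid markers summed to 471 to 2720 CPM pre-tx and 402 to 821 CPM post-tx; 2 rose and 4 fell. The 6 NK cell markers summed to at most 24.6 CPM pre-tx and to 36.4 to 42.2 CPM post-tx; none rose and 1 fell. The part of these cells in the Itgax rise was not tested. Over the 24 libraries the gene with the pattern most like Itgax was Cx3cr1, a chemokine receptor of effector T cells, NK cells and monocytes (Pearson r 0.933), then Palm (0.921) and Mybl2 (0.911).

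Pre-tx, Itgax was lower in Cat-Tg than in WT. Those labelled WT CD8+ pre-tx held 23.4, 12.9 and 33.8 CPM, and the log2 difference was −4.12 (SE 0.50, adjusted p = 0.000281, edgeR), kept in all 8 alternative fits and without any 1 library. Cat-Tg CD4+ pre-tx libraries held 3.02, 8.24 and 5.30 CPM and those labelled WT CD4+ pre-tx 43.1, 20.7 and 25.8 CPM, a log2 difference of −2.20 (SE 0.47, adjusted p = 0.00364, edgeR), also kept throughout. In the same comparisons 8 of 16 myeloid and 2 of 8 dendritic cell markers were lower in Cat-Tg CD8+ cells, 5 and 1 in Cat-Tg CD4+ cells, and all 14 B cell markers were lower in both. Dendritic cell markers summed to 134 to 135 CPM in those labelled WT CD8+ pre-tx and 78.2 to 116 CPM in the WT CD4+ pre-tx group, the highest of the 8 groups. Their part in the Itgax difference was not tested.

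Itgam (αM, CD11b) rose in Cat-Tg cells, and its change in WT cells did not pass. In Cat-Tg CD4+ cells it went from 3.05, 1.77 and 9.61 CPM to 43.8, 70.1 and 100.2 CPM (log2 fold change 3.54, SE 0.52, adjusted p = 0.000126, edgeR), kept without any 1 library. Cat-Tg CD8+ cells went from 6.57, 2.35 and 10.4 CPM to 43.0, 61.6 and 24.7 CPM (log2 fold change 2.75, SE 0.78, adjusted p = 0.0311, edgeR), a call lost without the first or the second library of either group (adjusted p up to 0.12). WT CD4+ levels were 31.0, 23.3 and 31.4 CPM pre-tx and 19.8, 18.3 and 21.7 CPM post-tx (log2 difference −0.39, SE 0.47, adjusted p = 0.556, edgeR), and WT CD8+ levels 49.0, 17.7 and 35.2 CPM and 27.3, 2.82 and 27.7 CPM (−0.71, SE 0.73, adjusted p = 0.536). Post-tx, Itgam was higher in Cat-Tg than in WT CD4+ cells by 1.60 on the log2 scale without overlap (SE 0.48, adjusted p = 0.0447, edgeR), a call lost in 5 of 6 fits that left out 1 library and kept only without the first Cat-Tg library; it was lost too with length-scaled TPM counts (adjusted p = 0.164) and with protein-coding transcripts only (adjusted p = 0.0691). Pre-tx it was lower in Cat-Tg CD4+ cells by 2.33 on the log2 scale (SE 0.50, adjusted p = 0.00375, edgeR), a call lost with length-scaled TPM counts (−1.63, adjusted p = 0.0903); in CD8+ cells the difference of −2.40 (SE 0.77, adjusted p = 0.0656) did not pass.

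In Cat-Tg CD4+ cells over time, and between genotypes in CD4+ post-tx cells, many myeloid and erythroid markers differed in the same direction as Itgam. The 16 markers summed to 1340 to 1960 CPM in Cat-Tg CD4+ pre-tx libraries and to 3820 to 5300 CPM post-tx, where 11 rose and 1 fell; between genotypes post-tx, 9 of 16 were higher in Cat-Tg and the WT sums were 892 to 1390 CPM. Itgad, the αD chain known on splenic macrophages, stood at 50.6 to 68.0 CPM pre-tx and 322 to 433 CPM post-tx in Cat-Tg CD4+ cells (log2 fold change 2.46, SE 0.30, adjusted p = 2.63e-05, edgeR). Of 7 erythroid markers tested, 6 rose in Cat-Tg CD4+ cells (median log2 fold change 3.21; sums of 1330 to 2120 CPM pre-tx and 4520 to 27000 CPM post-tx), and all 7 were higher in Cat-Tg than in WT CD4+ post-tx cells (median 4.38; 647 to 1100 CPM in WT). Of 7 platelet markers tested, 2 were higher in that genotype comparison and none lower, with sums of 10.4 to 14.5 CPM against 1.51 to 3.10 CPM. In WT CD4+ cells over time, where the Itgam change did not pass, 4 of 16 myeloid and 6 of 7 erythroid markers fell and none rose. The part of these markers in the Itgam differences was not tested. In Cat-Tg CD8+ cells, where Itgam also rose, myeloid sums were 471 to 2720 CPM pre-tx and 402 to 821 CPM post-tx, and Itgad stood at 1.28 to 10.95 CPM pre-tx and 6.66 to 11.5 CPM post-tx. Itgam shares exon bases with Gm49368, a gene model on the same strand at 0.186 to 9.49 CPM, and the counting can split reads between them.

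**Figure D3:**
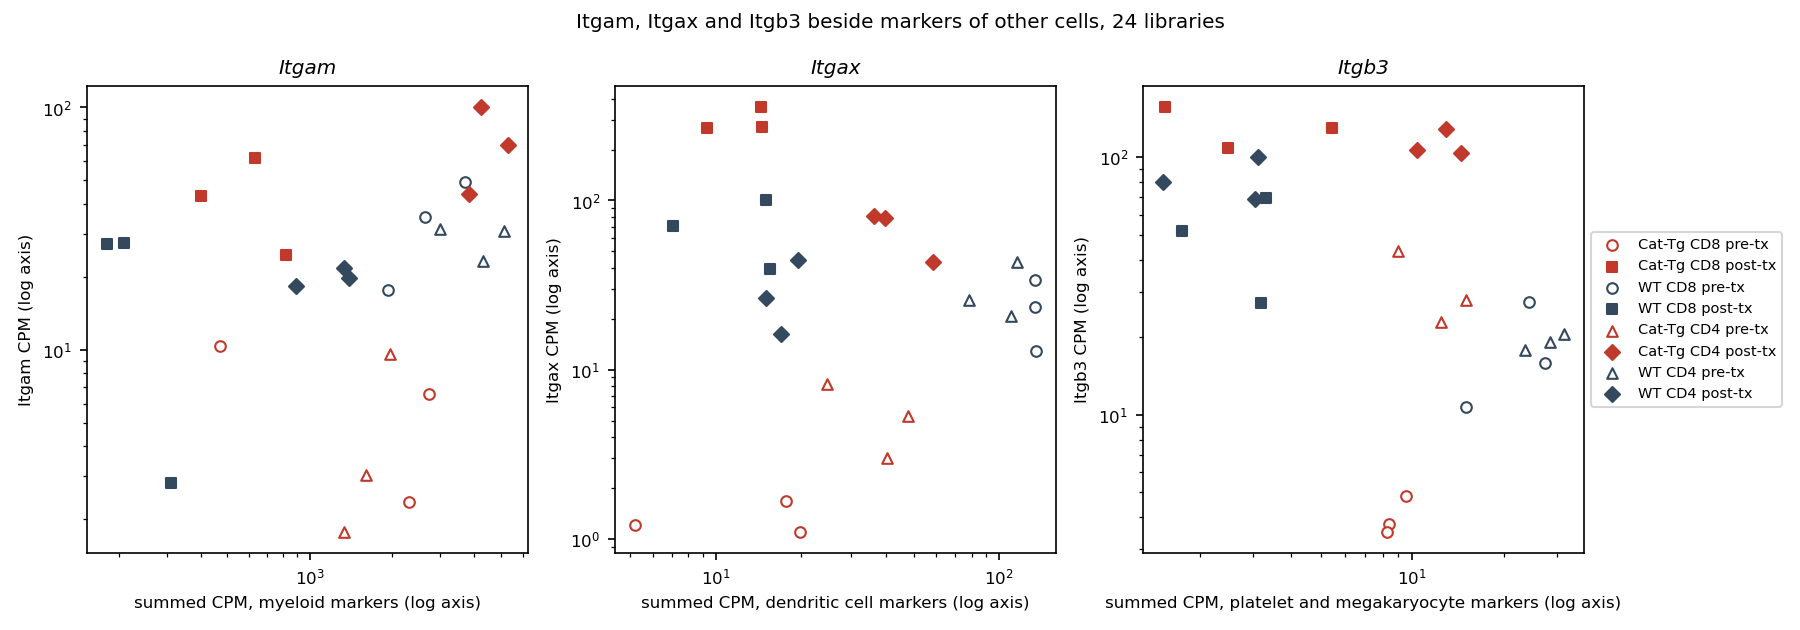
Each point is 1 of 24 libraries (circles and triangles pre-tx CD8+ and CD4+, squares and diamonds post-tx; red Cat-Tg, dark WT), with the CPM of Itgam, Itgax or Itgb3 against the summed CPM of myeloid, dendritic cell or platelet markers, all on log axes. The Cat-Tg CD8+ post-tx libraries are highest for Itgax at dendritic cell sums of 9.32 to 14.6 CPM, and the Cat-Tg CD4+ post-tx libraries hold the highest mean of Itgam at myeloid sums of 3820 to 5300 CPM.

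Among the matrix chains, Itgb3 (β3), known on platelets with αIIb and on many cells with αV, was lowest in Cat-Tg CD8+ pre-tx and highest in the same cells post-tx. It went from 3.78, 3.50 and 4.86 CPM to 109, 157 and 130.0 CPM, by 5.04 on the log2 scale (SE 0.53, adjusted p = 3.91e-05, edgeR), between 4.92 and 5.15 without any 1 library. Platelet and megakaryocyte markers (9 genes) summed to 8.28 to 9.57 CPM pre-tx and 1.54 to 5.44 CPM post-tx, with Gp9 at 0 post-tx, and none of the 3 tested rose. Itga2b, which encodes αIIb, fell by 3.60 on the log2 scale (SE 1.08, adjusted p = 0.0385), and Itgav had a log2 difference of 0.01 (SE 0.65, adjusted p = 0.994). Itgb3 rose in the other 3 settings too. Cat-Tg CD4+ cells went from 22.9, 27.9 and 43.3 CPM to 104, 129 and 107 CPM (log2 fold change 1.52, SE 0.28, adjusted p = 0.000781, edgeR) and WT CD4+ cells from 20.6, 17.9 and 19.2 CPM to 101, 69.1 and 80.0 CPM (2.25, SE 0.29, adjusted p = 5.41e-05, edgeR). WT CD8+ cells went from 10.7, 27.5 and 15.9 CPM to 27.3, 69.6 and 51.8 CPM, where the highest pre-tx library lay above the lowest post-tx library (1.60, SE 0.46, adjusted p = 0.0186, edgeR); this call was lost without the first or the third pre-tx library or the second or the third post-tx library, and with only the 6 libraries compared (adjusted p = 0.119).

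Pre-tx, Itgb3 differed between genotypes in opposite directions. It was lower in Cat-Tg CD8+ cells by 2.11 on the log2 scale (SE 0.47, adjusted p = 0.0107, edgeR), without overlap and kept without any 1 library. Platelet and megakaryocyte markers were lower in sum there too, at 8.75 ± 0.706 CPM in Cat-Tg and 22.3 ± 6.43 CPM in those labelled WT (mean ± SD, n = 3), without overlap, although none of the 3 tested passed (median log2 fold change −1.40); their part in the Itgb3 difference was not tested. It was higher in Cat-Tg CD4+ cells by 0.94 (SE 0.28, adjusted p = 0.0263, edgeR), without overlap, but this call was lost in 4 of 6 fits that left out 1 library (without the third Cat-Tg library or any 1 WT library) and in 5 of 8 other fits, with adjusted p up to 0.163. Between CD8+ and CD4+ Cat-Tg pre-tx cells Itgb3 was lower in CD8+ by 2.95 on the log2 scale (SE 0.39, adjusted p = 6.71e-05, edgeR, 24 libraries).

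Itgb1 (β1), the shared β chain of the VLA integrins, rose in all settings but WT CD8+ cells, where its change did not pass. WT CD4+ cells went from 42.6, 59.4 and 34.5 CPM to 428, 648 and 807 CPM, by 3.91 on the log2 scale (SE 0.36, adjusted p = 2.02e-06, edgeR). WT CD8+ cells held 119, 48.3 and 149 CPM pre-tx and 170, 63.9 and 173 CPM post-tx, which overlap (0.47, SE 0.48, adjusted p = 0.534). Post-tx, WT CD8+ cells lay below WT CD4+ cells by 2.21 on the log2 scale (SE 0.45, adjusted p = 0.00146, edgeR, 24 libraries). Cat-Tg cells rose in both: CD8+ from 97.0, 77.3 and 93.7 CPM to 693, 494 and 287 CPM (2.47, SE 0.51, adjusted p = 0.00554, edgeR), and CD4+ from 190.0, 256 and 189 CPM to 452, 952 and 1182 CPM (1.69, SE 0.33, adjusted p = 0.00104, edgeR). Each of these rises kept its call without any 1 library. Post-tx, all 3 Cat-Tg CD8+ libraries lay above all 3 WT CD8+ libraries, but the log2 difference of 1.77 (SE 0.50, adjusted p = 0.0782, edgeR) did not pass. Pre-tx, Itgb1 was higher in Cat-Tg CD4+ cells by 2.45 on the log2 scale (SE 0.34, adjusted p = 0.000168, edgeR), kept in all 8 alternative fits and without any 1 library. All 12 T cell markers were higher in Cat-Tg there (median log2 fold change 1.57) and all 14 B cell markers lower (median −3.39). In WT CD4+ cells over time all 12 T cell markers rose (median 1.45) and all 14 B cell markers fell (median −7.26). Their part in these Itgb1 differences, or in those of the other chains in the same comparisons, was not tested.

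Itga1 (α1), which with β1 binds collagen and marks resident T cells in tissue, had group means from 6.476 to 44.15 CPM. It went from 1.99, 11.2 and 6.25 CPM to 76.4, 37.3 and 18.8 CPM in Cat-Tg CD8+ cells (log2 fold change 2.78, SE 0.82, adjusted p = 0.0358, edgeR). That call was lost in 5 of 6 fits that left out 1 library and was kept only without the third post-tx library. In Cat-Tg CD4+ cells it went from 6.02, 9.54 and 7.18 CPM to 14.4, 35.01 and 49.0 CPM (1.77, SE 0.45, adjusted p = 0.00569, edgeR), kept without any 1 library, and in WT CD4+ cells from 8.85, 4.27 and 7.73 CPM to 13.4, 18.7 and 22.0 CPM (1.51, SE 0.45, adjusted p = 0.0229, edgeR), lost without the second or the third library of either group and with length-scaled TPM counts (adjusted p = 0.107). The retained-intron transcript Itga1-206 held 36.8% ± 11.3 and 42.2% ± 4.2 of the Itga1 counts in Cat-Tg CD8+ and CD4+ post-tx libraries, against 0.4% ± 0.7 and 2.6% ± 4.5 pre-tx. With protein-coding transcripts only, the Cat-Tg CD8+ rise was 2.15 on the log2 scale and no longer passed (adjusted p = 0.115, edgeR). Itga1 also shares exon bases with Gm49395 on the same strand, at 0.0 to 15.2 CPM.

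**Figure D4:**
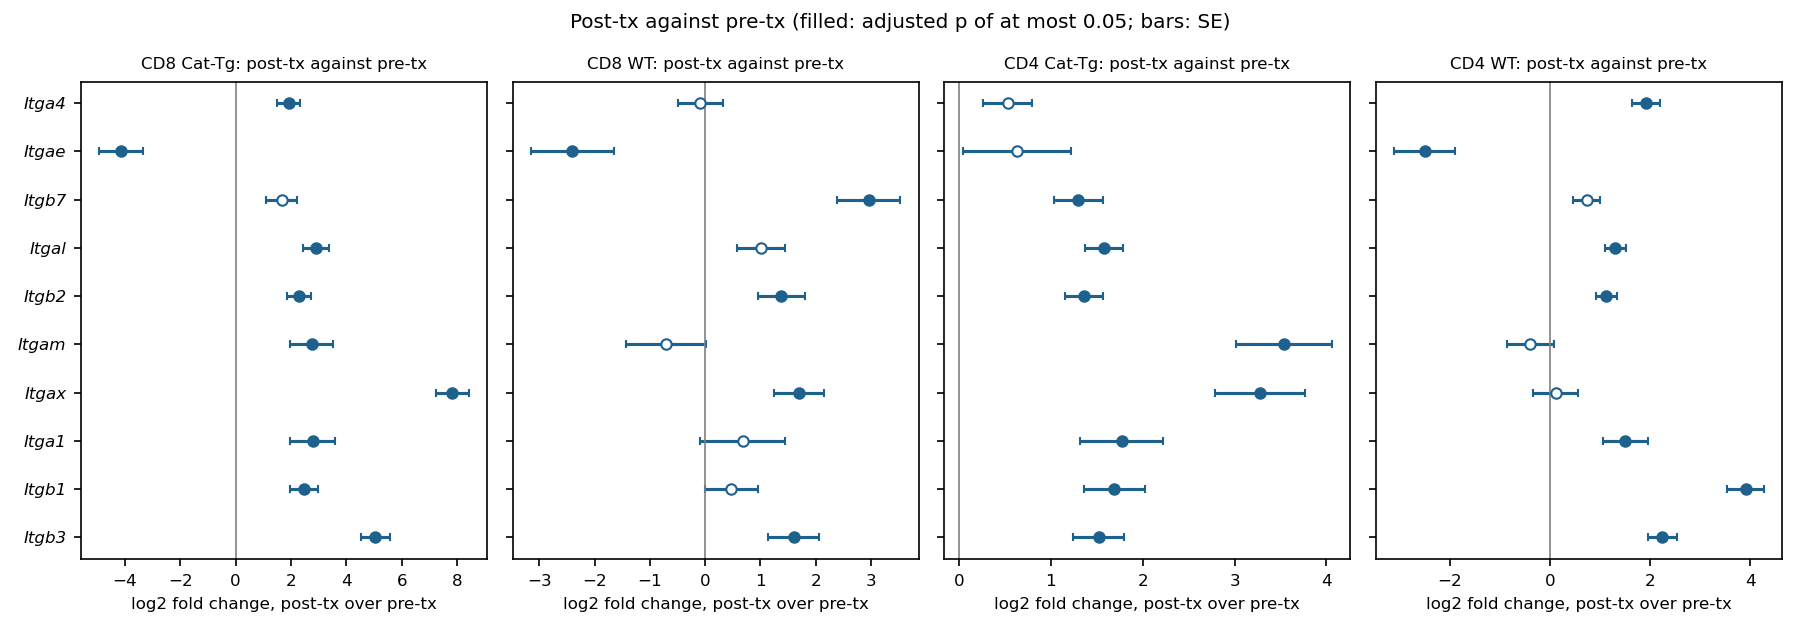
Points give the log2 fold change of each integrin chain, post-tx over pre-tx, with its SE as a bar, for Cat-Tg and WT CD8+ and CD4+ cells; filled points passed at an adjusted p of at most 0.05, and the axes differ between panels. Itgax in Cat-Tg CD8+ cells is farthest right (7.82) and Itgae in the same cells farthest left (−4.12).

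The change over time was compared between genotypes as an interaction, Cat-Tg change minus WT change, in which the mixed WT pre-tx libraries enter. In CD8+ cells 4 of 10 passed, all larger in Cat-Tg, where 5.94% of all genes were larger and 4.77% smaller: Itgax by 6.12 (SE 0.67, adjusted p = 0.000184), Itgam by 3.46 (SE 1.06, adjusted p = 0.0491), Itgb3 by 3.43 (SE 0.65, adjusted p = 0.00383) and Itga4 by 2.01 on the log2 scale (SE 0.58, adjusted p = 0.0373, all edgeR). Itgax and Itgb3 kept their call without any 1 library. The Itgam and Itga4 calls were each lost in 6 of 12 such fits and with protein-coding transcripts only (adjusted p = 0.0572 and 0.0964, edgeR). The Itgam call was also lost with DESeq2's size factors (adjusted p = 0.0513, edgeR). Without the first WT post-tx library 7 of 10 passed. The share of all genes that passed in that fit is not given here, so this count is not read as a result about the chains. In CD4+ cells 5 of 10 passed, 3 larger and 2 smaller, beside 7.28% and 14.1% of all genes. Itgam was larger by 3.93 (SE 0.69, adjusted p = 0.00134), Itgax by 3.16 (SE 0.65, adjusted p = 0.0036) and Itgae by 3.12 (SE 0.84, adjusted p = 0.0171, edgeR). Itgb1 was smaller by 2.22 on the log2 scale (SE 0.46, adjusted p = 0.00362) and Itga4 by 1.39 (SE 0.38, adjusted p = 0.0193, edgeR). The Itga4 call was lost without the first or the third WT pre-tx library or the third WT post-tx library and in 3 of 7 other fits (adjusted p up to 0.107), and the other 4 were kept. Markers of other cells showed interactions as well: 9 of 16 myeloid markers were larger in CD8+ cells (median 3.99) and 10 of 16 in CD4+ cells (2.03), with none smaller. Of 8 dendritic cell markers none was larger in CD8+ and 3 were in CD4+ cells, and of 14 B cell markers 10 were larger in each, with none smaller. Of 7 erythroid markers 1 was larger in CD8+ (median 2.64) and 7 in CD4+ cells (7.59), and of 12 T cell markers 6 and 10 were smaller. Their part in the interactions of the chains was not tested.

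CD8+ and CD4+ cells of one genotype and time were compared in a fit of all 24 libraries, on 19076 genes. By the methods both come from the same mice, although the replicate numbers are not tied to mice. In Cat-Tg pre-tx cells 1 of 10 was higher in CD8+ (Itgae) and 2 lower (Itgb3 and Itgax), beside 0.367% and 1.16% of all genes. The Itgax difference of −2.05 (SE 0.48, adjusted p = 0.0231, edgeR) was lost in 4 of 6 fits that left out 1 library, kept only without the second CD8+ or the first CD4+ library, and in 3 of 8 other fits (adjusted p up to 0.395). In Cat-Tg post-tx cells 1 of 10 was higher, Itgax, beside 1.49%, and none lower, beside 4.51%. In WT post-tx cells none was higher, beside 5.98%, and 1 lower, Itgb1, beside 7.16%. Without the first CD8+ library 5 of 10 passed, with Itgax and Itgb7 higher and Itga4, Itgae and Itgb1 lower in CD8+. The share of all genes in that fit is not given here, so this count is not read as a result about the chains. In WT pre-tx cells none of 10 passed in either direction, beside 0.00524% and 0.0315% of all genes. Of the 10, 3 had an unadjusted p under 0.05 (edgeR), beside 2677 of the 19076 genes, and DESeq2 called 1. The WT pre-tx libraries are those that held both coreceptors.

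**Figure D5:**
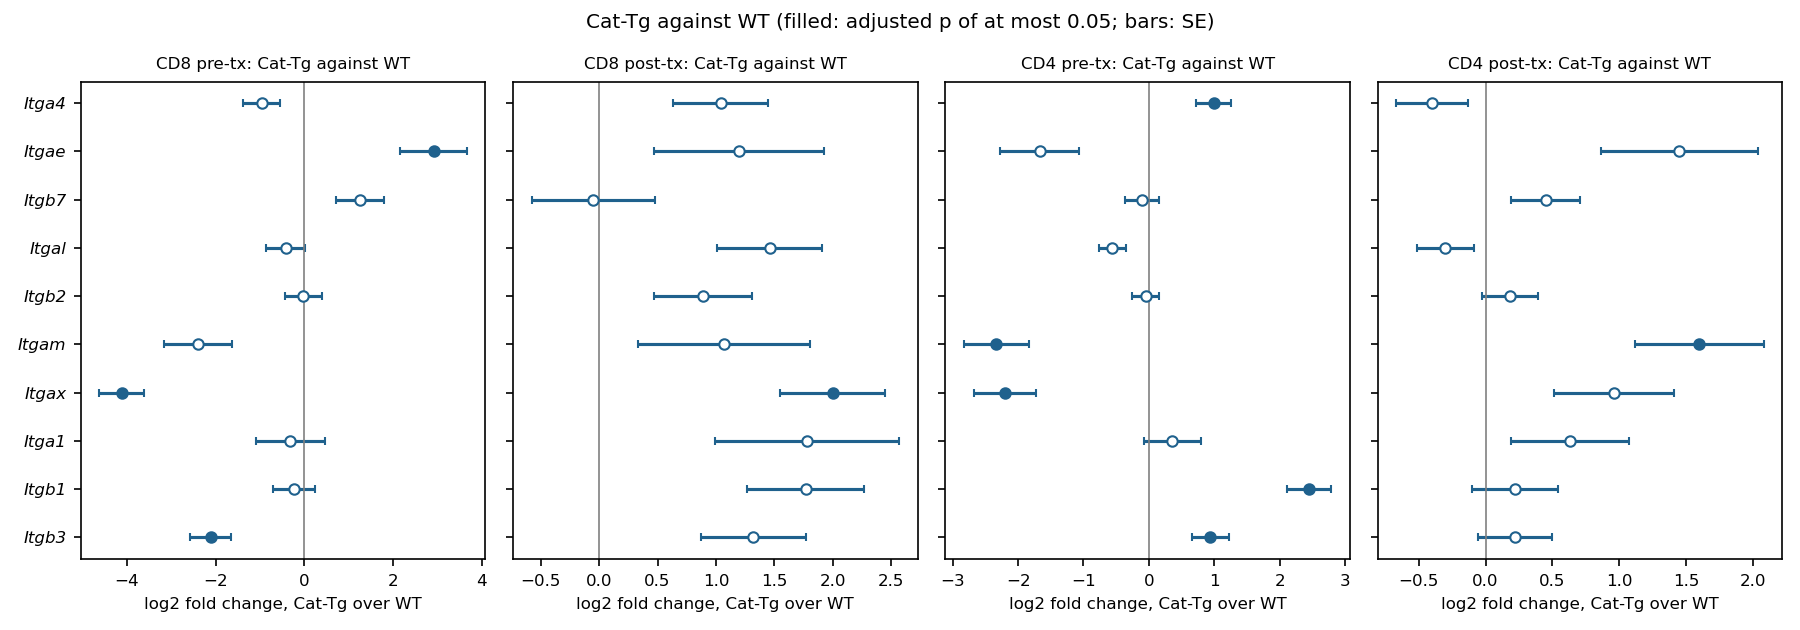
Points give the log2 fold change of each integrin chain, Cat-Tg over WT, with its SE as a bar, in CD8+ and CD4+ cells pre-tx and post-tx; filled points passed at an adjusted p of at most 0.05, and the axes differ between panels. Pre-tx, Itgae lies right (2.92) and Itgax left (−4.12) of 0 in CD8+ cells, and post-tx Itgax lies right (2.0).

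The other integrin genes were counted as a list of 16, of which 15 were tested. In Cat-Tg CD8+ cells 1 rose (Itga3) and 1 fell (Itga2b) after transplantation, beside 8.72% and 5.23% of all genes, with a median log2 fold change of −0.29, beside −0.26 over all genes. In Cat-Tg CD4+ cells 2 rose (Itgad and Itga9) and 4 fell (Itgb4, Itgb6, Itga7 and Itgb8), beside 16.2% and 28.9%, with a median of −0.56, beside −0.38. In WT CD8+ cells 1 rose (Itga3) and 1 fell (Itga5), beside 13.2% and 10.4%, and in WT CD4+ cells 1 rose (Itgad) and 2 fell (Itga2b and Itgb4), beside 14.7% and 9.61%. With 15 genes, these counts lie near the shares over all genes. Itga3, a laminin-binding α chain of β1, rose from 1.62 to 19.7 CPM in Cat-Tg CD8+ cells (log2 fold change 3.60, SE 1.14, adjusted p = 0.0476, edgeR) and from 1.01 to 22.0 CPM in WT CD8+ cells (4.57, SE 1.20, adjusted p = 0.0115, edgeR). Between genotypes none of the 15 passed in CD8+ cells at either time, and Itgad alone was higher in Cat-Tg CD4+ cells, by 1.11 pre-tx (SE 0.29, adjusted p = 0.0116) and 2.32 post-tx (SE 0.29, adjusted p = 0.000341, edgeR).

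Genes that switch integrins to their binding state were counted as a list of 20. In Cat-Tg CD8+ cells 4 rose and none fell over time, beside 8.72% and 5.23% of all genes (median log2 fold change 0.82, beside −0.26). Of the same list 8 rose and 4 fell in Cat-Tg CD4+ cells, beside 16.2% and 28.9% (0.44, beside −0.38). In WT CD8+ cells 4 rose and 2 fell, beside 13.2% and 10.4% (0.18, beside −0.23), a count near the share over all genes, and in WT CD4+ cells 6 rose and 1 fell, beside 14.7% and 9.61% (0.32, beside −0.13). Tln1 (talin), which binds β chain tails, rose from 337 to 1530 CPM in Cat-Tg CD8+ cells (2.20, SE 0.45, adjusted p = 0.0053, edgeR) and stood at 383 and 351 CPM in WT CD8+ cells (0.00, SE 0.43, adjusted p = 1.0). Post-tx, Tln1 was higher in Cat-Tg than in WT CD8+ cells (2.04, SE 0.44, adjusted p = 0.0374, edgeR), one of 4 of the list that were higher, with none lower, beside 1.10% and 0.570% of all genes. Fermt3 (kindlin-3), the second activator of β2 integrins, rose in Cat-Tg CD8+ cells (1.77, SE 0.53, adjusted p = 0.0387) and Cat-Tg CD4+ cells (1.03, SE 0.27, adjusted p = 0.00644, edgeR). Rasgrp2, which activates Rap1, rose in both genotypes of CD8+ cells, by 2.07 in Cat-Tg (SE 0.47, adjusted p = 0.0102) and 2.33 in WT (SE 0.48, adjusted p = 0.00245). Skap1, an adaptor of T cells, was higher in Cat-Tg pre-tx cells, by 2.50 in CD8+ (SE 0.32, adjusted p = 0.000379) and 1.88 in CD4+ (SE 0.21, adjusted p = 3.33e-05, edgeR), where T cell markers as a whole were higher.

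Ligands and the genes of gut homing and TGF-β were read the same way. Of 12 genes of gut homing and TGF-β signalling, the pathway known to induce αE, none was higher and 1 lower in Cat-Tg CD8+ pre-tx cells, where Itgae was highest, beside 4.50% and 4.47% of all genes, and the median log2 fold change was −0.61, beside −0.07. Ccr9, the gut homing chemokine receptor, fell with Itgae after transplantation in CD8+ cells, from 71.0 to 10.6 CPM in Cat-Tg (−2.73, SE 0.60, adjusted p = 0.00827, edgeR) and from 37.0 to 6.84 CPM in WT (−2.33, SE 0.59, adjusted p = 0.00977, edgeR). It rose in CD4+ cells of both genotypes, by 1.64 in Cat-Tg (SE 0.31, adjusted p = 0.000771) and 1.44 in WT (SE 0.30, adjusted p = 0.00292). Runx3, a factor of CD8+ T cells, rose in Cat-Tg CD8+ cells from 37.6 to 206 CPM (2.47, SE 0.48, adjusted p = 0.00394, edgeR) while Itgae fell. Smad3, a mediator of TGF-β, was higher in Cat-Tg than in WT CD8+ post-tx cells (96.8 and 17.9 CPM; 2.34, SE 0.45, adjusted p = 0.024, edgeR), as was the receptor Tgfbr2 (186 and 52.3 CPM; 1.75, SE 0.36, adjusted p = 0.0304).

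Of 18 integrin ligands, 15 were tested in CD8+ and 18 in CD4+ cells. Icam1, the ligand of LFA-1, rose in Cat-Tg CD8+ cells from 68.8 to 222 CPM (1.70, SE 0.51, adjusted p = 0.037, edgeR) and in Cat-Tg CD4+ cells from 48.6 to 245 CPM (2.02, SE 0.25, adjusted p = 3.16e-05, edgeR); in WT cells it had log2 differences of 0.11 (SE 0.49) and −0.42 (SE 0.24), which did not pass. Vcam1, the ligand of α4β1 and also a gene of splenic macrophages, stood at 1420 CPM in Cat-Tg CD4+ post-tx libraries and 269 CPM in WT (2.17, SE 0.40, adjusted p = 0.00398, edgeR), beside the higher myeloid sums there. Over the list, 1 rose and 4 fell over time in Cat-Tg CD8+ cells, beside 8.72% and 5.23% of all genes. The counts were 1 and 2 in WT CD8+ cells (13.2% and 10.4%), 4 and 6 in Cat-Tg CD4+ cells (16.2% and 28.9%), and 2 and 3 in WT CD4+ cells (14.7% and 9.61%), each near the share over all genes.

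The order of the 8 groups differed between chains. Cat-Tg CD8+ post-tx had the highest mean of 7 of the 10 (Itga1, Itga4, Itgal, Itgax, Itgb2, Itgb3 and Itgb7), Cat-Tg CD4+ post-tx of Itgam and Itgb1, and Cat-Tg CD8+ pre-tx of Itgae. The ratio of the highest to the lowest group mean ran from 4.05 for Itga4 and 4.85 for Itgb2 to 42.1 for Itgae and 226 for Itgax. Neighbours in the order mostly overlapped: of 7 neighbouring pairs, the library ranges of 7 overlapped for Itga1, of 6 for Itga4, Itgae and Itgam, of 5 for Itgal and Itgb7, and of 4 for Itgax, Itgb1, Itgb2 and Itgb3. For Itgae the one gap lay between Cat-Tg CD8+ pre-tx and the WT CD4+ pre-tx group next to it.

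Over the 24 libraries, which share groups and depth, the genes with patterns most like each chain among 8524 protein-coding genes were named by Pearson r on log2 CPM. Itgb7 was most like Kcnab2 (0.981) and Selplg (0.981), the latter the core protein of the selectin ligand PSGL-1. Itgb2 was most like Actn4 (0.974), Sec61a1 (0.971) and Itgal (0.959). Itgb1 was most like Pdia3 (0.951), Itgb3 like Litaf and Bhlhe40 (both 0.921), Itga1 like Dtl (0.926), Itga4 like Slamf1 (0.889) and Itgam like Cd244a (0.883). Itgae had the least close neighbours, Rgcc (0.836), Pik3ip1 (0.815) and Ifnar2 (0.783), and it had a negative r with each of the other 9 chains, from −0.06 (Itgam) to −0.62 (Itgb3).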

How the data were processed

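RNA from sorted T cells was sequenced in 24 libraries, 8 groups of 3, prepared with SMART-Seq HT and Nextera XT kits, which do not mark strand. The authors quantified transcripts with kallisto 0.46.2; the deposited tables give estimated counts and TPM for 117497 transcripts. The labels name mm9, and the release of the transcript index is not given in the sources used here. Estimated counts of 116374 transcripts matched by ID to GENCODE M21 were rounded and summed to 35817 genes (1123 were not matched); 99.57% to 99.75% of each library's counts matched. Totals were 11135713 to 50519825 per library.

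Genes above 1 CPM in at least 3 libraries were fitted with edgeR 4.0.16 (R 4.3.3; TMM, robust quasi-likelihood), the 12 CD8+ and 12 CD4+ libraries apart, and all 24 together for CD8+ against CD4+. A gene was called at a Benjamini-Hochberg adjusted p of at most 0.05; the SE is the fold change over the root of F. All 10 integrin chains are described, and for each the 3 genes with the highest Pearson r are named; of each other list at most 5 genes were named, from those with the highest mean CPM over the 24 libraries, or all where 5 or fewer were counted. The members and lists were chosen with earlier results of these data known. Alternatives were limma 3.58.1 voom, DESeq2 1.42.0, its size factors in edgeR, no filter, length-scaled TPM as counts, a replicate block, a fit of the 6 libraries alone, protein-coding transcripts only (chosen after seeing the data), fold thresholds, and leaving out each library. By the methods each library is 1 mouse, and CD4+ and CD8+ cells of a group share mice, which the numbers do not tie; p-values measure the spread between these libraries. Replicate numbers were checked as pairs: no comparison had all same-number correlations over 0.1. On simulated data for the CD8+ pre-tx comparison (15001 genes), 26 of 100 genes changed by 4 times and 69 of 100 changed by 16 times were recovered, with 5 false calls.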

Additional observations from a re-analysis of the deposited data

Results flagged for a closer look

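For 9 results the difference between genotypes was not the same pre-tx and post-tx by the test of the difference itself (edgeR interaction, Cat-Tg change minus WT change, log2 scale, adjusted p). In CD8+ cells these were Itgax at 6.12 (SE 0.67, adjusted p = 0.000184), Itgam at 3.46 (SE 1.06, adjusted p = 0.0491), Itgb3 at 3.43 (SE 0.65, adjusted p = 0.00383) and Itga4 at 2.01 (SE 0.58, adjusted p = 0.0373). In CD4+ cells they were Itgam at 3.93 (SE 0.69, adjusted p = 0.00134), Itgax at 3.16 (SE 0.65, adjusted p = 0.0036), Itgae at 3.12 (SE 0.84, adjusted p = 0.0171), Itgb1 at −2.22 (SE 0.46, adjusted p = 0.00362) and Itga4 at −1.39 (SE 0.38, adjusted p = 0.0193). Each uses the WT pre-tx libraries that held both coreceptors and B cell markers, and their part in these values was not tested.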

How the results depend on the processing

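Of 1305 values of 90 gene-level results under the alternatives, 1142 kept their direction and side of the threshold, 105 lost and 40 gained a call, and 18 changed sign, none of a called result. The number of chains called changed by over 1.5 times in these cases, whose cause was not tested. CD8+ pre-tx genotype gave 5 with only the 6 libraries compared. CD8+ post-tx genotype (1 called) gave 2 under DESeq2, 0 with its size factors, 2 with length-scaled TPM, 3 with no filter, and 0 with only the 6 libraries or at a size of 2 or more on the log2 scale. CD8+ WT over time (5) gave 3 with length-scaled TPM, 1 with the 6 libraries and 2 at that fold. The CD8+ interaction (4) gave 2 with protein-coding transcripts only. CD4+ pre-tx genotype (5) gave 3 at a fold of at least 1 or 2. CD4+ post-tx genotype (1) gave 2 under DESeq2 and limma voom, and 0 with length-scaled TPM, protein-coding transcripts only or a fold of at least 2. CD4+ over time gave 2 (Cat-Tg, of 8) and 3 (WT, of 7) at a fold of at least 2. For CD8+ against CD4+, Cat-Tg post-tx (1) gave 2 under limma voom and 3 with the 6 libraries, WT pre-tx (0) gave 1 under DESeq2, and WT post-tx (1) gave 3 under DESeq2 and 2 with its size factors, under limma voom and with protein-coding transcripts only.

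Leaving out 1 library gave, for genotype, 2 to 3 chains called in CD8+ pre-tx, 0 to 2 in CD8+ post-tx, 3 to 5 in CD4+ pre-tx and 0 to 1 in CD4+ post-tx. Over time it gave 6 to 9 in CD8+ Cat-Tg, 1 to 6 in CD8+ WT, 8 to 9 in CD4+ Cat-Tg and 6 to 7 in CD4+ WT, and for the interactions 2 to 7 in CD8+ and 4 to 5 in CD4+. For CD8+ against CD4+ it gave 1 to 3 and 1 in Cat-Tg pre-tx and post-tx, 0 in WT pre-tx and 1 to 5 in WT post-tx. The shares of all genes called in these fits and in the alternatives above are not given here.

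With the replicate block, CD8+ post-tx genotype gave 0 chains called (Itgax 2.05, adjusted p = 0.0569) and the Itgb7 difference there was 0.16. The block also ended the calls of Itga1 in Cat-Tg CD8+ cells over time (2.47, adjusted p = 0.0644) and of Itgb2 in WT CD8+ cells over time (1.30, adjusted p = 0.0553), and no other call of a chain. Same-numbered libraries did not deviate together in every pair of any comparison, so the numbers are not taken as a pairing.

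The values that changed sign were small or uncalled log2 differences between genotypes. In CD8+ pre-tx cells Itga1 was 0.09 with protein-coding transcripts only and −1.07 to 0.10 without 1 library, Itgb1 −0.60 to 0.08 without 1 library, and Itgb2 0.03 with the 6 libraries and −0.22 to 0.01 without 1 library. In CD8+ post-tx cells Itgb7 was 0.13 with length-scaled TPM, 0.48 under limma voom, 0.04 with no filter and −0.38 to 0.99 without 1 library. In CD4+ cells Itgb2 was −0.32 to 0.01 pre-tx and Itgb1 −0.04 to 0.52 post-tx without 1 library, and Itga4 was 0.05 post-tx with length-scaled TPM. With 3 libraries a group, few genes changed by 4 times were recovered in simulated data, so a missed threshold does not show that levels were alike.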
